A study of Mus musculus with 40 samples.

Results

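The nuclear genes for respiratory complexes II to V were followed through the first cleavage of mouse embryos of 3 origins, with and without a block of RNA polymerase II. Members were taken by symbol from probe sets annotated to exactly 1 gene. They are Sdha, Sdhb, Sdhc and Sdhd, symbols that begin with Uqcr, Cyc1, symbols that begin with Cox4 to Cox8 or with Cox10 to Cox19, and symbols that begin with Atp5. The rule gave 54 genes on 108 probe sets, of 18193 genes on 34945 such probe sets, and the probe set with the highest mean over all arrays stood for each gene. The mean was that of the normalized log2 levels described below. With the mean of the deposited values the choice would differ for Sdhc alone. Among the chosen probe sets 8 have the suffix s, including those of Cox17 and Atp5e. Another 4 have the suffix x, those of Cox5b, Cox8a, Cox15 and Sdhc. Probes of these types can also match other transcripts, and this was not tested here. Of the 54, 51 passed the filter on dim probe sets and were tested beside all other genes, 14916 in all. These were 4 of 4 complex II genes, 9 of 9 complex III genes, 14 of 17 cytochrome c oxidase subunits, 7 of 7 cytochrome c oxidase assembly factors and 17 of 17 ATP synthase genes. Cox7a1, a heart and muscle isoform, Cox7b2, a testis isoform, and Cox8b, another heart and muscle isoform, stayed below the filter.

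The 10 groups were embryos of the B6D2 strain at the 1-cell and the 2-cell stage. At each stage there were embryos made by somatic cell nuclear transfer (SCNT) with a cumulus cell of a B6D2 female as donor, with and without α-amanitin, which blocks RNA polymerase II. There were also parthenogenetic embryos, which have no paternal genome and were not given amanitin, and fertilized embryos with and without α-amanitin. Each group had 4 arrays except untreated SCNT at the 1-cell stage, which had 3, so that 39 arrays were used. The letter A before a replicate number was read as α-amanitin, as labels of SCNT samples spell out, and for fertilized embryos this is taken from that code together with the stated design. The labels name MEMα as medium for SCNT embryos, KSOM for 1 fertilized sample and none elsewhere, so medium and origin cannot be told apart. Nothing states that the replicates came from separate cultures, so p-values measure only the spread between these samples. An array carries the RNA of an embryo sample, and fewer cells of a type and less RNA per cell cannot be told apart.

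Complex II, succinate dehydrogenase, passes electrons from the citric acid cycle to ubiquinone. Complex III passes them on to cytochrome c, and complex IV, cytochrome c oxidase, gives them to oxygen. Complex V, the ATP synthase, uses the proton gradient that complexes I, III and IV build to make ATP. Complex II is built from nuclear genes only, whereas complexes III, IV and V also hold subunits made inside the mitochondrion, which the rule does not cover. The mouse egg carries a large maternal store of mitochondria and of messenger RNA, part of which is degraded after fertilization, while the major activation of the embryonic genome takes place at the 2-cell stage. Amanitin blocks the making of new messenger RNA, and maternal messenger RNA can still be degraded. How complete the block was in these embryos was not tested.

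Levels are given as log2 of the deposited intensity plus a constant of 6.9, after quantile normalization, and a difference of 1 is a 2-fold change on that scale. After this step a level is relative to the rest of its array and is not an amount per embryo. Spiked control RNA was not used for the scaling. Terms such as rose, fell, higher and lower refer to these relative levels. The constant compresses the change of dim probe sets. The overall median is 5.34, and the levels of different genes cannot be set against each other because each probe set binds with its own strength. A gene is called where the adjusted p of limma, a linear model with a moderated variance fitted over all genes and arrays, is below 0.05. Differences are written as value ± standard error (SE). Group values are mean ± SD over the arrays of the group. A level below the overall median lies under the limit of the filter. For some members with such arrays the difference is therefore also given with those arrays set at the median. That value has no test, and the step was chosen after seeing the data. It was not computed within the 1-cell stage. Other sizes of members with such arrays carry the same limit. With amanitin in SCNT embryos the value is -1.72 for Atp5e, -4.81 for Atp5j, -2.25 for Atp5l and -2.79 for Cox15. It is -1.79 for Sdhd and -3.28 for Uqcrq. Of the 51 members 29 had more than 1 tested probe set. With amanitin in SCNT 2-cell embryos the chosen probe set was called for 27 of these, and all probe sets of the gene were called the same way for 17. In fertilized 2-cell embryos this held for 9 of 19, and for the difference between the origins for 12 of 20. For the stage change it held for 15 of 21 in SCNT, 12 of 19 in parthenogenetic and 12 of 20 in fertilized embryos. Between untreated 2-cell embryos it held for 6 of 13 in SCNT minus fertilized and 11 of 22 in parthenogenetic minus fertilized.

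On the arrays as a whole, oocyte markers were bright in every group, with 9 or 10 of 10 markers above the overall median on all arrays of a group. The sum of 4 markers of the activated 2-cell embryo ran from 179.5 to 298.3 in SCNT 2-cell embryos with amanitin, against 8536 to 9955 without it. It ran from 190.1 to 280.4 in fertilized 2-cell embryos with amanitin, against 10580 to 11660 without it. Markers of cumulus and granulosa cells, 11 in number, summed to 3274 to 4293 in untreated SCNT, 1280 to 1527 in parthenogenetic and 2526 to 3917 in untreated fertilized 2-cell embryos. Their sum ran from 776.9 to 885.5 in SCNT and from 823.3 to 1025 in fertilized 2-cell embryos with amanitin, and from 586.4 to 866 in the 1-cell groups. Between 4 and 8 of the 11 were above the median on all arrays of the amanitin and parthenogenetic 2-cell groups, against 5 in untreated SCNT and 3 in untreated fertilized 2-cell embryos. Sperm markers, 6 in number, summed to 128.4 to 324.6 over all groups. The gene Amhr2 is 1 of the 11 markers of cumulus and granulosa cells and is named here after its values were seen. It averaged 5.61 in SCNT 2-cell embryos with amanitin, against 11.59 without it. In fertilized 2-cell embryos it averaged 5.57 with amanitin, against 11.35 without it. At the 1-cell stage it averaged 5.44 in untreated SCNT and 5.55 in untreated fertilized embryos. In each origin it was the only 1 of the 10 tested markers called higher between the stages without amanitin. The higher 2-cell sums without amanitin thus rest on this gene. Cyp11a1, another of the 11, was lower at the 2-cell than at the 1-cell stage, by -1.84 in SCNT and -2.34 in fertilized embryos without amanitin. The part of these cells in the results was not tested.

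Over the 51 tested members, the mean level at the 2-cell stage was 7.66 ± 0.07 in SCNT embryos with amanitin, 9.49 ± 0.05 in untreated SCNT embryos, 8.32 ± 0.07 in parthenogenetic embryos, 8.30 ± 0.12 in fertilized embryos with amanitin and 8.81 ± 0.15 in untreated fertilized embryos (SD, n = 4). The widest gap was inside the SCNT 2-cell embryos, between those with amanitin and those without. At the 1-cell stage the mean was 8.46 ± 0.14 in SCNT embryos with amanitin, 8.45 ± 0.05 in untreated SCNT embryos, 8.33 ± 0.06 in parthenogenetic embryos, 8.47 ± 0.07 in fertilized embryos with amanitin and 8.45 ± 0.18 in untreated fertilized embryos (SD, n = 4 arrays, 3 for untreated SCNT). The 1-cell groups thus lay close together. Untreated SCNT 2-cell embryos had the highest group mean for 31 of the 54 members, and SCNT 2-cell embryos with amanitin had the lowest for 26.

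**Figure D1:**
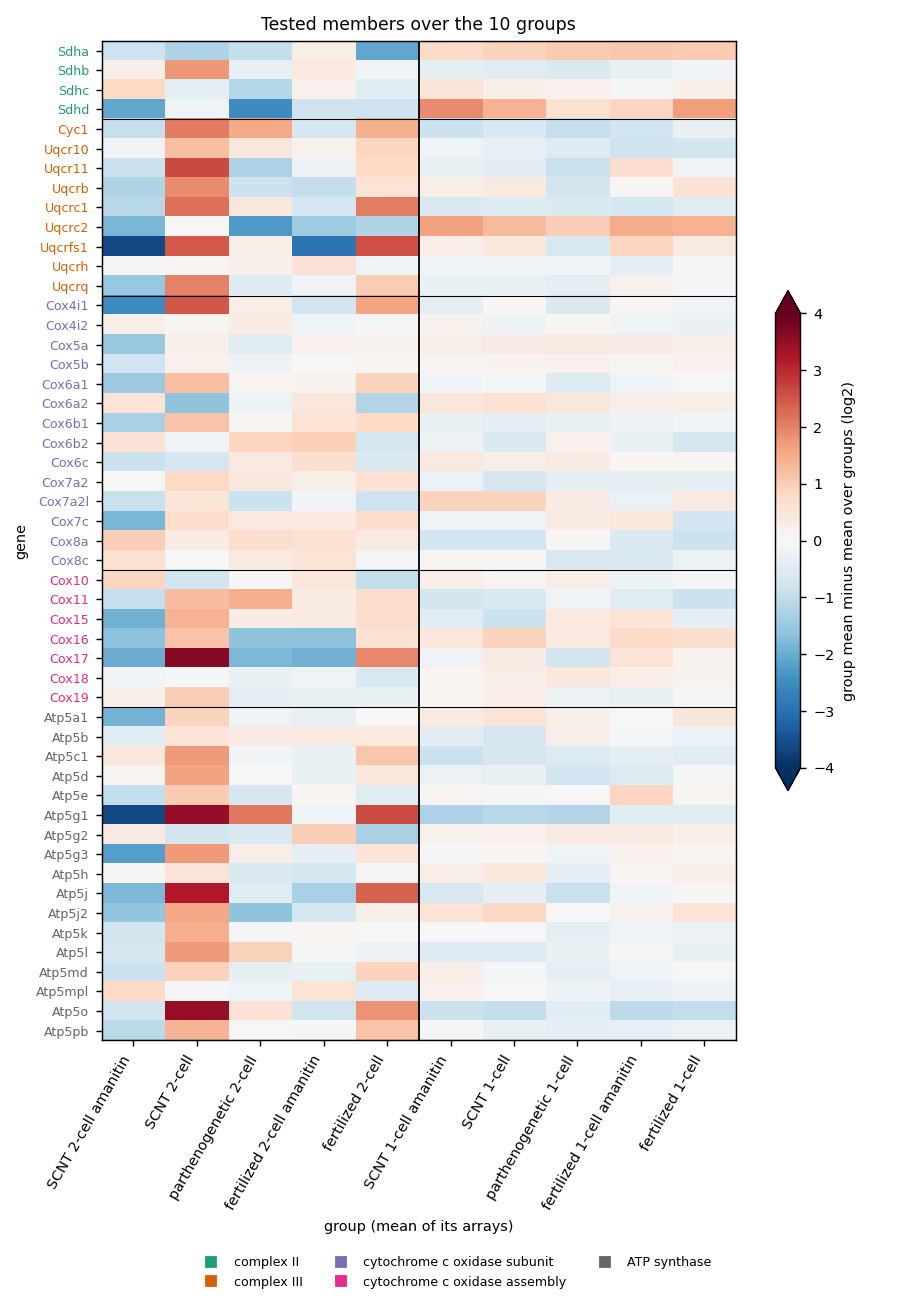
Group mean of each member relative to the gene's own mean over the 10 groups (colour, log2), for the 51 tested members in rows by complex and the groups in columns, 2-cell to the left of 1-cell. Over all members, untreated SCNT 2-cell embryos hold the highest mean of 31 of 54 members and SCNT 2-cell embryos with amanitin the lowest of 26.

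**Figure D2:**
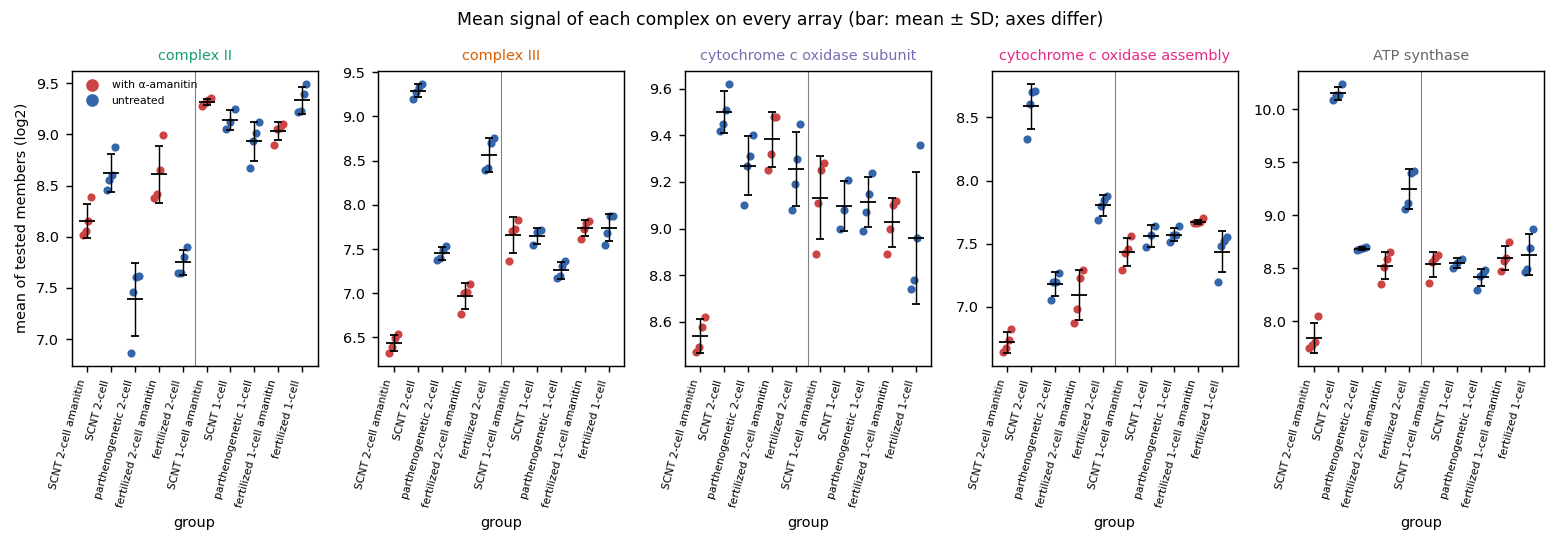
Mean level of the tested members of each complex on every array (points; y axis, log2) by group (x axis, 2-cell to the left of 1-cell), with bars for the group mean ± SD and a y axis of its own for each complex. At the 2-cell stage the ATP synthase members average 7.84 in SCNT embryos with amanitin and 10.15 without, and 8.53 in fertilized embryos with amanitin and 9.25 without.

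Amanitin at the 2-cell stage lowered most members in SCNT embryos and fewer in fertilized embryos. With amanitin, 38 of 51 members were lower and 9 higher in SCNT embryos, with a median difference of -1.83, against a median of 0.28 over all genes, of which 29.7% were called lower, 39.6% higher and 69.2% either way. In fertilized embryos 23 members were lower and 13 higher with amanitin, with a median of -0.31, against 0.27 over all genes, of which 25.8% were called lower, 38.6% higher and 64.3% either way. The shares of members called lower were thus above that of all genes in SCNT embryos and also, by less, in fertilized embryos. The call was lower in both origins for 23 members and higher in both for 7. Another 12 were called lower in SCNT embryos and not called in fertilized embryos.

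The difference between the origins was tested directly, as the amanitin effect in SCNT embryos minus that in fertilized embryos. It was called lower for 36 of 51 members and higher for 1, where 21.1% of all genes were called lower, 17.8% higher and 38.9% either way. Its median was -1.35 over the members and -0.00 over all genes. A negative value here means a larger loss, or a smaller gain, with amanitin in SCNT embryos. The same arrays differed in technical measures. The 18S ribosomal RNA probe sets lay at 12.77 to 13.58 in SCNT embryos with amanitin, against 9.47 to 11.53 without it, and at 12.67 to 12.99 in fertilized embryos with amanitin, against 9.67 to 11.05 without it. The spiked hybridization controls lay at 10.28 to 10.73 in SCNT embryos with amanitin, against 8.98 to 9.36 without it, and at 9.62 to 9.70 in fertilized embryos with amanitin, against 9.11 to 9.27 without it. The poly(A) spike controls lay at 9.91 to 10.48 in SCNT embryos with amanitin, against 7.97 to 8.99 without it, and at 7.0 to 7.45 in fertilized embryos with amanitin, against 6.74 to 8.25 without it, where the groups overlap. The median correlation of an array with the others of its group was 0.941 to 0.9453 in SCNT 2-cell embryos with amanitin, below every other group. The part of these measures in the difference was not tested.

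**Figure D3:**
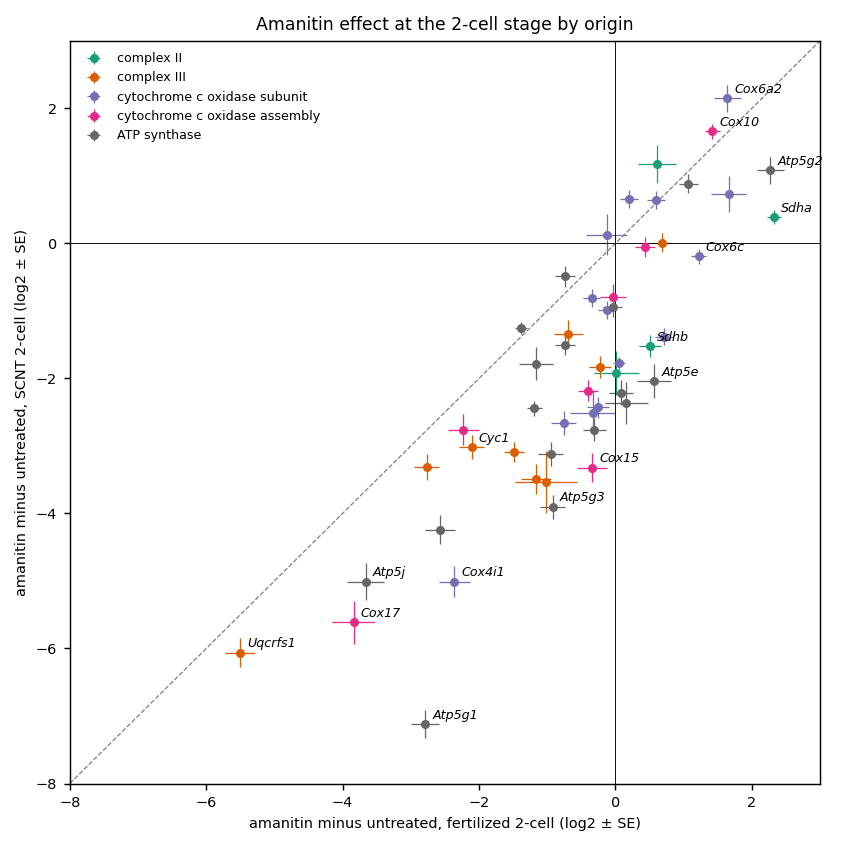
Amanitin minus untreated (log2) for each of the 51 tested members in SCNT 2-cell embryos (y axis) and in fertilized 2-cell embryos (x axis), with SE bars, coloured by complex, and the line of equal effect (dashed). Most points lie below that line, with Atp5g1 at -7.12 in SCNT and -2.79 in fertilized embryos as the farthest.

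From the 1-cell to the 2-cell stage without amanitin, more members rose than fell in SCNT and fertilized embryos. In SCNT embryos 31 rose and 8 fell, with a median of 1.11, against -0.14 over all genes, of which 26.3% rose, 34.4% fell and 60.7% did either. In parthenogenetic embryos 18 rose and 14 fell, with a median of 0.08, against -0.04 over all genes, of which 21.7% rose, 27.4% fell and 49.1% did either. With each array centred on its median, the parthenogenetic split turned to 10 higher and 21 lower while the median of all genes moved to -0.26, and the SCNT split became 30 higher and 15 lower. In fertilized embryos 23 rose and 12 fell, with a median of 0.22, against -0.13 over all genes, of which 25.8% rose, 34.2% fell and 60% did either. The change was larger in SCNT than in fertilized embryos for 22 members and smaller for 0, where 8.62% and 10.4% of all genes were called (19% either way), and 7 other members passed an unadjusted p of 0.05 in limma. For parthenogenetic minus fertilized embryos, 7 members were called higher and 17 lower, where 19.8% and 15.7% of all genes were called (35.4% either way), and median centring gave 2 and 23. Technical measures moved with the stage too. The 18S probe sets lay at 9.47 to 11.53 in untreated SCNT 2-cell embryos, against 13.12 to 13.40 at the 1-cell stage, at 10.97 to 11.54 in parthenogenetic 2-cell embryos, against 12.79 to 13.16, and at 9.67 to 11.05 in untreated fertilized 2-cell embryos, against 12.88 to 13.37. The poly(A) controls lay at 7.97 to 8.99 in SCNT 2-cell embryos, against 3.54 to 3.60 at the 1-cell stage, at 7.39 to 7.46 in parthenogenetic 2-cell embryos, against 7.56 to 7.87, and at 6.74 to 8.25 in fertilized 2-cell embryos, against 5.75 to 6.64. Their part in the stage change was not tested.

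Under amanitin the change between the stages differed from this. In SCNT embryos 7 members rose and 27 fell, beside 25.6% and 29.8% of all genes (55.4% either way), and median centring gave 3 and 31. In fertilized embryos 14 rose and 14 fell, beside 21.5% and 19% of all genes (40.6% either way). Median centring gave 5 and 22 there. With amanitin, more members fell than rose in SCNT embryos under both scalings, and the balance in fertilized embryos depended on the scaling.

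Of the 4 complex II genes, 0 rose and 3 fell between the stages in fertilized embryos, where 25.8% of all genes rose and 34.2% fell. Sdha encodes the flavoprotein that oxidises succinate. At the 2-cell stage it lay at 9.69, 10.07, 9.96 and 9.71 in SCNT embryos with amanitin, against 9.51, 9.44, 9.40 and 9.50 in untreated SCNT embryos. It lay at 10.09, 9.60, 9.52 and 9.67 in parthenogenetic embryos. Among fertilized embryos the values were 10.99, 10.93, 10.88 and 10.84 with amanitin, against 8.45, 8.63, 8.78 and 8.52 without it. At the 1-cell stage all 19 arrays lay between 11.16 and 11.84, so Sdha was lower on every 2-cell array, and lowest in untreated fertilized embryos. Its fall between the stages was -2.14 ± 0.11 in SCNT, -2.0 ± 0.10 in parthenogenetic and -3.13 ± 0.10 in fertilized embryos (limma adjusted p = 6.95e-20, 1.81e-19 and 3.26e-26). With amanitin it was 0.39 ± 0.10 higher in SCNT embryos (limma adjusted p = 0.000831) and 2.32 ± 0.10 higher in fertilized embryos (4.29e-22). The SCNT call was lost with median centring (0.29) and with the mean of its probe sets (0.21). In that comparison the dimmer probe sets of Sdha had 1.17 and -0.94. For the stage change the second probe set had -2.85 in SCNT, -2.23 in parthenogenetic and -2.41 in fertilized embryos, whereas the dimmest, with a mean of 4.74, had 0.88, -0.24 and 0.10. With amanitin in fertilized embryos these had 2.19 and -0.17.

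The promoter of Sdha is shown because it holds the motif of nuclear respiratory factor 1 (NRF1; GCGCA, any base, then GCGC) in 3 places, here in capitals, more than the other promoters printed. The stretch is the 250 bases before the annotated start from RefSeq, build GRCm38.p6, chr13:74350241-74350490, minus strand, written 5′ to 3′ along the gene.
Sdha: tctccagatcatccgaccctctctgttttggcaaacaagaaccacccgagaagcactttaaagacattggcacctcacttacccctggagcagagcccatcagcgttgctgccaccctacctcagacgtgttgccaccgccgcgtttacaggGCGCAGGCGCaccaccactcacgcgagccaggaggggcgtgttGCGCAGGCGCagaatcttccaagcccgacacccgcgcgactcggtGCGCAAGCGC

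Sdhd, a membrane anchor of complex II, was called lower at the 2-cell than at the 1-cell stage in all 3 origins on its brighter probe set. At the 2-cell stage it lay at 6.09, 5.11, 7.11 and 5.02 in SCNT embryos with amanitin, against 7.72, 8.23, 7.46 and 7.61 without it. It lay at 6.03, 4.02, 6.0 and 5.55 in parthenogenetic embryos. In fertilized embryos it lay at 6.90, 6.87, 7.78 and 6.76 with amanitin, against 7.0, 7.38, 6.81 and 7.09 without it. The 1-cell arrays held 8.27 to 10.05, and no 2-cell array reached them, the highest being 8.23. The fall between the stages was -1.56 ± 0.36 in SCNT, -3.13 ± 0.33 in parthenogenetic and -2.52 ± 0.33 in fertilized embryos (limma adjusted p = 0.000213, 1.45e-10 and 1.22e-08). With amanitin it was -1.92 ± 0.33 in SCNT embryos (limma adjusted p = 2.34e-06), and 0.01 in fertilized embryos with a 95% interval of -0.66 to 0.67. Its second probe set had stage changes of -0.12 in SCNT, -1.81 in parthenogenetic and -0.30 in fertilized embryos, and only the parthenogenetic one was called. With amanitin it had -1.39 in SCNT and -1.41 in fertilized embryos, so the SCNT and fertilized stage falls and the fertilized amanitin value rest on the choice of probe set.

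Sdhb, the iron-sulfur subunit, rose in SCNT embryos. It lay at 7.85, 8.26, 8.78 and 8.13 in SCNT 2-cell embryos with amanitin, against 9.81, 10.05, 9.67 and 9.57 without it. It lay at 7.25, 7.77, 7.93 and 7.92 in parthenogenetic 2-cell embryos. The fertilized 2-cell arrays held 8.37, 8.52, 8.52 and 8.28 with amanitin, against 8.14, 8.02, 7.88 and 7.63 without it. The untreated SCNT 2-cell arrays thus stood above all 35 others. The stage change was 2.21 ± 0.17 in SCNT embryos (limma adjusted p = 1.03e-14), 0.26 ± 0.16 in parthenogenetic embryos (0.17) and -0.01 in fertilized embryos, with a 95% interval of -0.33 to 0.31. The SCNT change exceeded the fertilized one by 2.22 ± 0.23 (limma adjusted p = 2.45e-09). Amanitin left Sdhb lower in SCNT embryos (-1.52 ± 0.16) and higher in fertilized embryos (0.50 ± 0.16), and these differed by -2.02 ± 0.22 (limma adjusted p = 1.04e-09). Sdhc, the other membrane anchor, has probe sets that disagree. The chosen one was 1.17 ± 0.28 higher with amanitin in SCNT embryos and the other -0.56 ± 0.16, so no direction is given. The other has the higher mean of the deposited values. In the counts of members Sdhc enters with the chosen probe set.

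Most complex III members were lower with amanitin. Of 9 genes, 8 were lower with amanitin and 0 higher in SCNT embryos, and 7 were lower and 1 higher in fertilized embryos. The shares lower were 88.9% and 77.8%, against 29.7% and 25.8% of all genes. Between the stages 7 rose and 1 fell in SCNT, 4 rose and 1 fell in parthenogenetic, and 5 rose and 1 fell in fertilized embryos. The gene that fell was Uqcrc2 in each. The shares that rose were 77.8%, 44.4% and 55.6%, against 26.3%, 21.7% and 25.8% of all genes.

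Uqcrfs1, the Rieske iron-sulfur protein that takes electrons from ubiquinol, had the largest amanitin difference within complex III in both origins. It lay at 3.26, 3.89, 3.72 and 3.34 in SCNT 2-cell embryos with amanitin, against 9.19, 9.67, 9.78 and 9.79 without it. It lay at 7.44, 7.68, 7.17 and 7.23 in parthenogenetic 2-cell embryos. Fertilized 2-cell embryos held 4.18, 3.73, 4.01 and 4.95 with amanitin, against 9.79, 9.84, 9.72 and 9.54 without it. Every amanitin array was below the overall median of 5.34 and every untreated 2-cell array above it. The amanitin difference was -6.06 ± 0.22 in SCNT and -5.50 ± 0.22 in fertilized embryos (limma adjusted p = 5.17e-25 and 1.37e-23). With the amanitin arrays set at the median the differences are -4.27 in SCNT and -4.38 in fertilized embryos, so Uqcrfs1 was lower by at least these sizes and the losses in the 2 origins cannot be ordered. At the 1-cell stage Uqcrfs1 ran from 6.79 to 7.78 in SCNT embryos with amanitin, 7.45 to 7.68 in untreated SCNT, 6.08 to 6.73 in parthenogenetic, 7.76 to 8.27 in fertilized embryos with amanitin and 7.22 to 7.90 in untreated fertilized embryos. The 2-cell amanitin arrays were therefore also below the 1-cell ones, by -3.87 ± 0.22 in SCNT and -3.80 ± 0.22 in fertilized embryos (limma adjusted p = 1.61e-18 and 1.64e-17), or -2.08 and -2.68 with arrays set at the median.

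Uqcrc1 and Uqcrc2, the core proteins of complex III, moved in opposite directions between the stages. Uqcrc1 lay at 5.89, 5.52, 5.37 and 6.02 in SCNT 2-cell embryos with amanitin, against 9.27, 9.10, 8.86 and 8.82 without it. For fertilized embryos the arrays read 6.44, 6.16, 5.45 and 6.29 with amanitin, against 9.0, 8.84, 8.85 and 8.73 without it. Parthenogenetic 2-cell embryos were between them, at 6.99, 7.57, 7.40 and 7.02. All 19 1-cell arrays lay from 5.74 to 6.52, so Uqcrc1 rose by 2.76 ± 0.21 in SCNT, 1.01 ± 0.19 in parthenogenetic and 2.55 ± 0.19 in fertilized embryos (limma adjusted p = 8.5e-15, 2.95e-05 and 8.13e-15).

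Uqcrc2 lay at 8.32, 8.02, 7.71 and 7.70 in SCNT 2-cell embryos with amanitin, against 9.59, 9.47, 10.25 and 9.75 without it. Fertilized embryos at this stage had 8.28, 8.27, 8.45 and 8.33 with amanitin, against 8.62, 8.56, 8.76 and 8.31 without it. Parthenogenetic 2-cell embryos had 7.35, 7.87, 7.0 and 7.77. The 1-cell arrays ran from 10.66 to 11.79, above all 2-cell arrays. The fall was -1.25 ± 0.17 in SCNT, -3.26 ± 0.16 in parthenogenetic and -2.61 ± 0.16 in fertilized embryos (limma adjusted p = 5.52e-08, 6.27e-20 and 1.78e-17), and with amanitin it was -3.45 ± 0.16 in SCNT and -2.91 ± 0.16 in fertilized embryos. The amanitin difference at the 2-cell stage was -1.83 ± 0.16 in SCNT embryos (limma adjusted p = 4.25e-13) and -0.23 in fertilized embryos, with a 95% interval of -0.56 to 0.10.

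Cyc1, cytochrome c1, rose in all 3 origins. It lay at 6.25, 6.19, 7.30 and 7.05 in SCNT 2-cell embryos with amanitin, against 9.74, 9.85, 9.58 and 9.71 without it. In parthenogenetic 2-cell embryos it lay at 9.33, 9.35, 9.20 and 8.77. Among fertilized embryos the values were 7.06, 6.55, 7.23 and 6.99 with amanitin, against 9.20, 8.84, 9.13 and 9.11 without it. The 1-cell arrays ran from 6.55 to 7.52 and overlapped those of the 2-cell amanitin groups. The rise was 2.68 ± 0.19 in SCNT, 2.45 ± 0.18 in parthenogenetic and 1.73 ± 0.18 in fertilized embryos (limma adjusted p = 2e-15, 7.56e-15 and 4.99e-11). Parthenogenetic minus fertilized at the 2-cell stage was 0.09, with a 95% interval of -0.28 to 0.45.

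Of the small subunits, Uqcrb, which binds ubiquinone in yeast and cattle enzymes, was -3.09 ± 0.15 with amanitin in SCNT and -1.49 ± 0.15 in fertilized embryos (limma adjusted p = 7.23e-21 and 2.06e-11). Uqcr10 was -1.34 ± 0.21 and -0.69 ± 0.21 in the same pair of comparisons, and its dimmer probe sets had -3.18 and -3.53 in SCNT and -2.24 and -2.44 in fertilized embryos. Uqcr11 was -3.53 ± 0.46 in SCNT embryos, where all 4 amanitin arrays lay below the median (-2.33 with them set there), and its fertilized value of -1.02 ± 0.46 lost the call when single arrays were left out (-0.75 without untreated fertilized replicate 2). With arrays set at the median that fertilized value is -0.52. Uqcrq was -3.49 ± 0.22 in SCNT and -1.16 ± 0.22 in fertilized embryos. Its dimmer probe sets had -0.18, 0.56 and 0.94 in SCNT embryos, against the chosen one. Uqcrh, the hinge protein, had 0.01 ± 0.14 in SCNT embryos, where its other probe set had -2.49, and was 0.68 ± 0.14 higher in fertilized embryos.

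**Figure D4:**
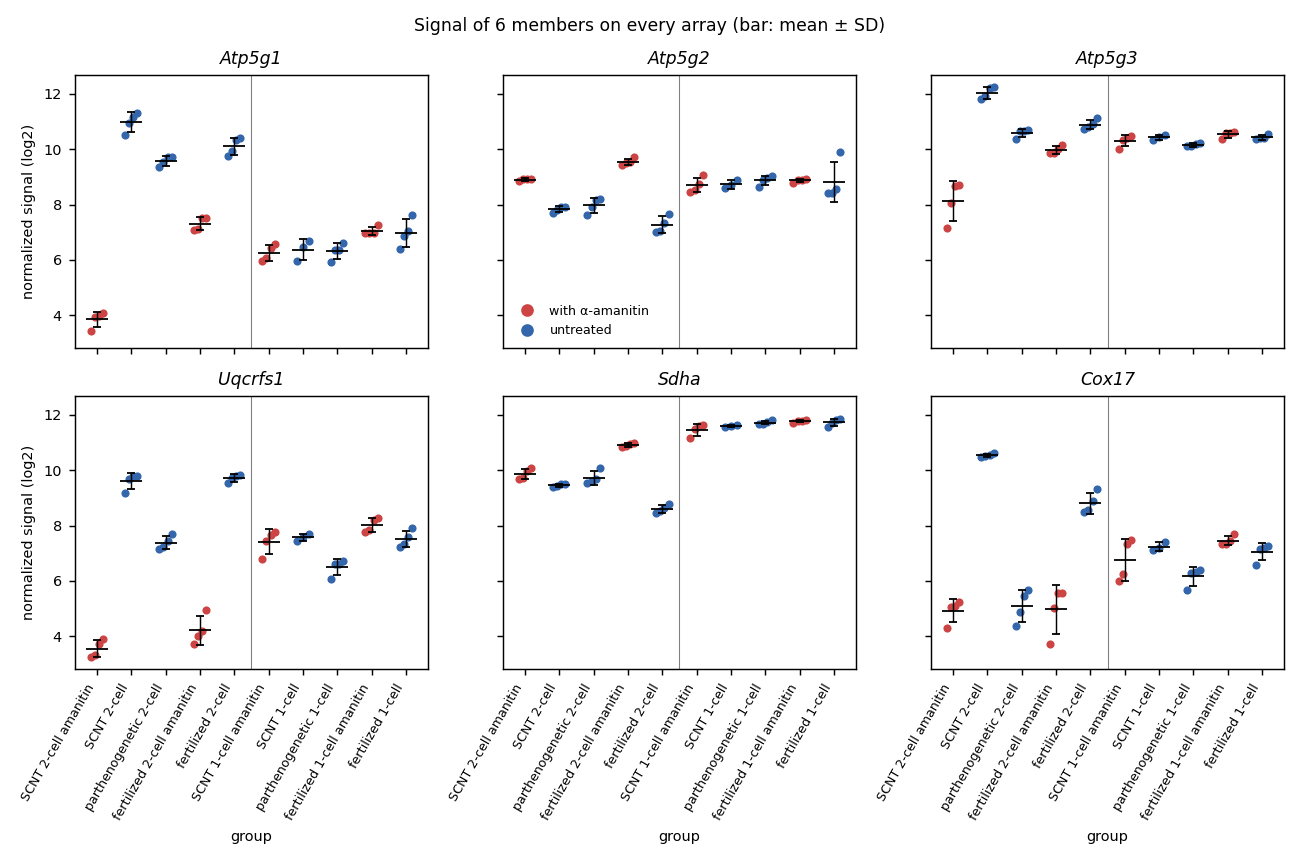
Level on each array (points; y axis, log2) by group (x axis, 2-cell to the left of 1-cell) for Atp5g1, Atp5g2, Atp5g3, Uqcrfs1, Sdha and Cox17, with bars for the group mean ± SD. Uqcrfs1, Cox17 and Atp5g1 are lower in the 2-cell amanitin groups than in untreated 2-cell embryos of the same origin, whereas Sdha and Atp5g2 are higher there.

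Among the cytochrome c oxidase subunits, 8 of 14 were lower and 4 higher with amanitin in SCNT embryos (57.1% lower, against 29.7% of all genes). In fertilized embryos 3 were lower and 5 higher (21.4% and 35.7%), close to the 25.8% and 38.6% of all genes. Between the stages 6 rose and 3 fell in SCNT, 6 rose and 4 fell in parthenogenetic, and 6 rose and 3 fell in fertilized embryos. The share that rose was 42.9% in each, against 26.3%, 21.7% and 25.8% of all genes. Those that fell were 21.4%, 28.6% and 21.4%, against 34.4%, 27.4% and 34.2%.

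Isoforms of 1 subunit are given side by side. Cox4i1, the general isoform of subunit 4, lay at 7.28, 6.11, 5.14 and 6.55 in SCNT 2-cell embryos with amanitin, against 11.37, 11.27, 11.26 and 11.24 without it. It lay at 8.71, 9.05, 9.18 and 9.15 in parthenogenetic 2-cell embryos. The fertilized 2-cell arrays held 7.92, 8.17, 7.98 and 8.0 with amanitin, against 10.68, 10.46, 10.24 and 10.14 without it. The 4 SCNT amanitin arrays spread over more than 2 log2 units, and all of them were below the fertilized amanitin arrays. The amanitin difference was -5.01 ± 0.23 in SCNT and -2.36 ± 0.23 in fertilized embryos, and these differed by -2.65 ± 0.32 (limma adjusted p = 1.24e-08). Cox4i2, the lung isoform, was not called in any of the 17 comparisons or 4 interactions, with group means between 5.19 and 5.77.

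Cox6a2, the heart and muscle isoform of subunit 6a, lay at 7.67, 8.25, 8.36 and 8.24 in SCNT 2-cell embryos with amanitin, against 5.83, 5.50, 6.26 and 6.34 without it. It lay at 7.40, 7.35, 7.27 and 7.49 in parthenogenetic 2-cell embryos. Fertilized 2-cell embryos held 8.13, 8.13, 8.16 and 7.79 with amanitin, against 6.29, 6.46, 6.53 and 6.37 without it. The 1-cell arrays ran from 7.37 to 8.61, which takes in the 2-cell amanitin arrays. With amanitin Cox6a2 was 2.15 ± 0.20 higher in SCNT and 1.64 ± 0.20 higher in fertilized embryos (limma adjusted p = 2.57e-12 and 3.2e-09), a difference of 0.51 with a 95% interval of -0.07 to 1.09. Between the stages it fell by 2.20 in SCNT, 0.68 in parthenogenetic and 1.42 in fertilized embryos on the log2 scale. Its dimmer probe set, with a mean of 5.07, had 0.51 with amanitin in SCNT embryos, which missed the threshold. Cox6a1, the general isoform, moved in the opposite direction: with amanitin it was -2.66 ± 0.18 in SCNT and -0.76 ± 0.18 in fertilized embryos, and its stage change was 1.23 ± 0.19 in SCNT and 0.92 ± 0.18 in fertilized embryos.

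The promoter of Cox6a1 is shown because it holds the motifs of both nuclear respiratory factors, that of NRF1 in 2 places and CCGGAAG, bound by GABP, once on the other strand, all in capitals. It is the 250 bases before the annotated start from RefSeq, build GRCm38.p6, chr5:115348959-115349208, minus strand.
Cox6a1: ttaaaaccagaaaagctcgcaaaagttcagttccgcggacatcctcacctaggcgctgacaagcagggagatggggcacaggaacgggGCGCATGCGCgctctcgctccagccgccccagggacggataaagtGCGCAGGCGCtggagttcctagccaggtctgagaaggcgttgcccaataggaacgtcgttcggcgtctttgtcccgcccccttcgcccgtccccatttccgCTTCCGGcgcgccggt

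Cox6b2, the testis isoform of subunit 6b, was 0.73 ± 0.26 higher with amanitin in SCNT embryos, with overlapping arrays, and 0.54 without amanitin replicate 3 or without untreated replicate 4, no longer past the threshold. In fertilized embryos it was 1.66 ± 0.26 higher (limma adjusted p = 5.82e-07). Cox6b1, the general isoform, was -2.43 ± 0.16 in SCNT embryos (limma adjusted p = 1.49e-16) and -0.26 ± 0.16 in fertilized embryos (0.173), and its other probe set had -1.03 and 0.07. Cox6c, a small nuclear subunit, had -0.19 ± 0.11 in SCNT embryos, where its other probe set had -0.92, and was 1.22 ± 0.11 higher in fertilized embryos with amanitin, a difference of -1.41 ± 0.16 (limma adjusted p = 1.16e-09).

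Cox7a2l, which joins complexes III and IV into supercomplexes, was -1.38 ± 0.13 with amanitin in SCNT embryos and 0.71 ± 0.13 in fertilized embryos, a difference of -2.09 ± 0.19 (limma adjusted p = 3.55e-12, 1.11e-05 and 7.02e-12). Cox7a2, the general isoform of subunit 7a, was -0.81 ± 0.13 in SCNT embryos, and its fertilized value of -0.35 ± 0.13 fell to -0.23 without untreated fertilized replicate 1, past the threshold no longer. Cox7c was -2.51 ± 0.33 in SCNT embryos and -0.33 ± 0.33 in fertilized embryos. All 4 SCNT amanitin arrays of Cox7c lay below the median, and its SCNT value is -0.36 with them set there. Cox5a and Cox5b were -1.77 ± 0.09 and -0.99 ± 0.13 in SCNT embryos. In fertilized embryos they had 0.05, with a 95% interval of -0.13 to 0.22, and -0.12 ± 0.13. Over all 5 tested probe sets, the chosen one included, Cox5b ran from -1.79 to 0.08 in SCNT and from -0.12 to 0.88 in fertilized embryos.

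Cox8a, the general isoform of subunit 8, rose in relative level between the stages and was not called lower with amanitin. It lay at 11.14, 11.01, 11.09 and 11.09 in SCNT 2-cell embryos with amanitin, against 10.15, 10.66, 10.52 and 10.36 without it. In parthenogenetic 2-cell embryos it lay at 10.74, 10.66, 10.78 and 11.02. For fertilized embryos the arrays read 10.76, 10.62, 10.75 and 10.54 with amanitin, against 10.62, 10.43, 10.59 and 10.23 without it. The 1-cell arrays ran from 8.99 to 10.28, and within each origin all 2-cell arrays were above them. The stage change was 1.09 ± 0.14 in SCNT, 0.66 ± 0.13 in parthenogenetic and 1.23 ± 0.13 in fertilized embryos, and with amanitin it was 1.73 ± 0.13 in SCNT and 1.14 ± 0.13 in fertilized embryos (limma adjusted p = 4.18e-09, 2.84e-05, 3.6e-11, 3.44e-15 and 1.01e-09). Under median centring the parthenogenetic value dropped to 0.04, past the threshold no longer. Cox8c, the testis isoform, was 0.64 ± 0.13 higher with amanitin in SCNT and 0.59 ± 0.13 higher in fertilized embryos (limma adjusted p = 6.68e-05 and 0.000212).

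Among the cytochrome c oxidase assembly factors, 5 of 7 were lower and 1 higher with amanitin in SCNT embryos, and 3 were lower and 2 higher in fertilized embryos. The shares lower were 71.4% and 42.9%, against 29.7% and 25.8% of all genes. Those higher were 14.3% and 28.6%, against 39.6% and 38.6%. Cox17, a copper chaperone, lay at 5.25, 4.31, 5.10 and 5.06 in SCNT 2-cell embryos with amanitin, against 10.47, 10.56, 10.53 and 10.61 without it. It lay at 5.66, 4.39, 5.45 and 4.88 in parthenogenetic 2-cell embryos. Fertilized embryos at this stage had 5.58, 3.72, 5.55 and 5.03 with amanitin, against 8.88, 9.32, 8.55 and 8.49 without it. The parthenogenetic arrays thus overlapped the amanitin arrays, although these embryos had no amanitin. Parthenogenetic minus fertilized was -3.71 ± 0.32, SCNT minus parthenogenetic 5.45 ± 0.32 and SCNT minus fertilized 1.73 ± 0.32 (limma adjusted p = 7.62e-13, 6.92e-18 and 3.03e-05). Between the stages Cox17 rose by 3.31 ± 0.34 in SCNT and 1.76 ± 0.32 in fertilized embryos, and fell by 1.08 in parthenogenetic embryos on the log2 scale, a fall of 0.65 with the values as deposited, which missed the threshold.

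Cox10, which makes heme O from heme, was higher with amanitin in both origins. It lay at 10.98, 11.05, 11.17 and 10.91 in SCNT 2-cell embryos with amanitin, against 9.55, 9.17, 9.47 and 9.29 without it. In parthenogenetic 2-cell embryos it lay at 10.09, 10.33, 10.13 and 10.32. Among fertilized embryos the values were 10.62, 10.63, 10.63 and 10.59 with amanitin, against 9.12, 9.10, 9.31 and 9.26 without it. The parthenogenetic arrays lay between the amanitin and the untreated arrays of the other origins. The amanitin difference was 1.66 ± 0.11 in SCNT and 1.42 ± 0.11 in fertilized embryos (limma adjusted p = 5.28e-17 and 8.14e-15). Cox15, which turns heme O into heme A, was -3.32 ± 0.22 in SCNT embryos and -0.34 ± 0.22 in fertilized embryos, a difference of -2.98 ± 0.31 (limma adjusted p = 2.07e-10). Its other probe sets had -2.98, -2.44 and 0.04 in SCNT embryos and -2.44, -2.30 and 0.02 for the difference, so the chosen one is the farthest from 0. Cox16 was -2.76 ± 0.23 in SCNT and -2.23 ± 0.23 in fertilized embryos, and it was -2.20 ± 0.23 in parthenogenetic relative to fertilized 2-cell embryos. Its dimmer probe set had 0.39, 0.91 and -0.13 in these comparisons, none called. With arrays set at the median the chosen one has -1.15, -0.62 and -0.62, so the size of each is not settled. Cox11, which delivers copper, was -2.18 ± 0.15 with amanitin in SCNT embryos and rose by 1.85 ± 0.16, 1.57 ± 0.15 and 1.57 ± 0.15 between the stages in SCNT, parthenogenetic and fertilized embryos.

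ATP synthase members were nearly all lower with amanitin in SCNT embryos. The counts were 15 of 17 lower and 2 higher in SCNT embryos, and 10 lower and 3 higher in fertilized embryos. The shares lower were 88.2% and 58.8%, against 29.7% and 25.8% of all genes. The difference between the origins was called lower for 13 and higher for 0, where 21.1% of all genes were called lower and 17.8% higher. Between the stages 13 rose and 1 fell in SCNT, 7 rose and 3 fell in parthenogenetic, and 9 rose and 3 fell in fertilized embryos. The shares that rose were 76.5%, 41.2% and 52.9%, against 26.3%, 21.7% and 25.8% of all genes.

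Atp5g1, Atp5g2 and Atp5g3 encode the same mature c subunit of the membrane ring with different import signals, and their levels followed different courses. Atp5g1 lay at 3.45, 3.94, 4.07 and 3.97 in SCNT 2-cell embryos with amanitin, against 11.32, 10.50, 10.96 and 11.16 without it. It lay at 9.52, 9.71, 9.34 and 9.73 in parthenogenetic 2-cell embryos. The fertilized 2-cell arrays held 7.13, 7.52, 7.51 and 7.09 with amanitin, against 10.39, 10.32, 9.93 and 9.77 without it. The amanitin arrays of SCNT embryos were below the median of all values, and those of fertilized embryos well above it. The amanitin difference was -7.12 ± 0.21 in SCNT and -2.79 ± 0.21 in fertilized embryos, and these differed by -4.33 ± 0.30 (limma adjusted p = 1.04e-27, 5.94e-15 and 6.42e-15). With the SCNT amanitin arrays set at the median the SCNT value is -5.64. At the 1-cell stage the 19 arrays ran from 5.93 to 7.62, so the SCNT 2-cell amanitin arrays were below them as well, by -2.39 ± 0.21 against the 1-cell amanitin embryos (limma adjusted p = 7.75e-13), or -0.92 with arrays set at the median. The rise between the stages was 4.62 ± 0.23 in SCNT, 3.26 ± 0.21 in parthenogenetic and 3.12 ± 0.21 in fertilized embryos.

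Atp5g2 ran the other way. It lay at 8.85, 8.94, 8.92 and 8.91 in SCNT 2-cell embryos with amanitin, against 7.92, 7.90, 7.80 and 7.68 without it. It lay at 7.91, 7.63, 8.17 and 8.21 in parthenogenetic 2-cell embryos. Fertilized 2-cell embryos held 9.52, 9.50, 9.70 and 9.42 with amanitin, against 7.35, 7.66, 7.02 and 7.04 without it. No amanitin array overlapped an untreated 2-cell array. The amanitin difference was 1.08 ± 0.20 in SCNT and 2.27 ± 0.20 in fertilized embryos, and the stage change was -0.90 ± 0.21 in SCNT, -0.89 ± 0.20 in parthenogenetic and -1.55 ± 0.20 in fertilized embryos. Without untreated fertilized 1-cell replicate 1, which lay at 9.90 where the others held 8.40 to 8.55, the fertilized value was -1.19.

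Atp5g3 lay at 8.69, 8.04, 7.15 and 8.68 in SCNT 2-cell embryos with amanitin, against 11.91, 12.23, 11.81 and 12.20 without it. It lay at 10.67, 10.38, 10.65 and 10.68 in parthenogenetic 2-cell embryos. Fertilized embryos lay between 9.86 and 10.14 on the 4 arrays with amanitin, against 10.72, 10.91, 11.12 and 10.80 without it. Its 1-cell arrays were close together, from 10.01 to 10.62. With amanitin it was -3.90 ± 0.18 in SCNT and -0.92 ± 0.18 in fertilized embryos, a difference of -2.98 ± 0.25 (limma adjusted p = 6.08e-22, 1.52e-05 and 1.18e-12). Under amanitin, then, Atp5g1 and Atp5g3 were lower in both origins and Atp5g2 higher in both.

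The promoters of these genes are shown side by side because the genes make 1 protein and took different courses. Each is the 250 bases before the annotated start from RefSeq, build GRCm38.p6, minus strand, written 5′ to 3′. Atp5g1 is at chr11:96075632-96075881, Atp5g2 at chr15:102671048-102671297 and Atp5g3 at chr2:73911327-73911576. The NRF1 motif is in capitals where it falls in the stretch, which is so for Atp5g2 alone. In Atp5g3 it begins 12 bases after the start, outside the printed bases, and Atp5g1 has no match.
Atp5g1: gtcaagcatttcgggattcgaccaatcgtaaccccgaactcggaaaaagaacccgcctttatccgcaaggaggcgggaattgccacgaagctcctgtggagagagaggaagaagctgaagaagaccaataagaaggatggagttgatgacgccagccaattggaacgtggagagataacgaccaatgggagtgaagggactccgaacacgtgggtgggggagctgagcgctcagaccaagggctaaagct
Atp5g2: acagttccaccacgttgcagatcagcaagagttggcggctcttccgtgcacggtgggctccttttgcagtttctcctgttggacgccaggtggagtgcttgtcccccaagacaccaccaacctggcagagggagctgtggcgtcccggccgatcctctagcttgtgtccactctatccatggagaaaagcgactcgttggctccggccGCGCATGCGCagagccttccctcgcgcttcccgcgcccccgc
Atp5g3: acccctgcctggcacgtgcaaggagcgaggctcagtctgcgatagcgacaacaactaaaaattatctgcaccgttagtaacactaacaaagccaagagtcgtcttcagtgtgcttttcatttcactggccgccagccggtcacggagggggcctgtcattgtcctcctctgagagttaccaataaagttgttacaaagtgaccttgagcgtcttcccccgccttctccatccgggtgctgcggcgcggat

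Of the catalytic head, Atp5a1, the α subunit, was -2.76 ± 0.17 with amanitin in SCNT and -0.31 ± 0.17 in fertilized embryos, a difference of -2.45 ± 0.24 (limma adjusted p = 1.01e-10). A probe set of Atp5a1 of like brightness (mean 10.34, against 10.77) had -0.68 in SCNT and 0.63 in fertilized embryos, both called, and -1.32 for the difference. The dimmest had -1.27, -0.61 and -0.67. Atp5b, the β subunit, was -0.95 ± 0.14 and -0.04 ± 0.14, a difference of -0.91 ± 0.20. Atp5c1, the γ subunit, was -1.26 ± 0.09 and -1.38 ± 0.09, with a difference of 0.12 ± 0.13 that missed the threshold (limma adjusted p = 0.536). Atp5c1 rose by 2.39 ± 0.10 in SCNT, 0.45 ± 0.09 in parthenogenetic and 1.56 ± 0.09 in fertilized embryos. The parthenogenetic value turned to -0.10 under median centring.

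Atp5e, the ε subunit, was called in opposite directions in the 2 origins. It lay at 5.22, 4.83, 4.69 and 5.80 in SCNT 2-cell embryos with amanitin, against 7.44, 7.01, 7.43 and 6.82 without it. Fertilized embryos at this stage had 6.57, 5.72, 6.42 and 6.11 with amanitin, against 5.66, 6.20, 5.33 and 5.36 without it. The fertilized groups overlapped and the SCNT groups did not. The amanitin difference was -2.04 ± 0.25 in SCNT embryos (limma adjusted p = 2.99e-09). The fertilized value of 0.57 ± 0.25 just passed the threshold (0.0489) and no longer did so without single arrays (0.45 without amanitin replicate 1). The difference between the origins, -2.61 ± 0.36, was called (limma adjusted p = 1.42e-07).

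Of the stalk and membrane parts, Atp5o, the protein that ties the head to the outer stalk, was -4.24 ± 0.22 in SCNT and -2.57 ± 0.22 in fertilized embryos with amanitin, and Atp5j, coupling factor 6, was -5.01 ± 0.27 and -3.66 ± 0.27. Both rose between the stages in SCNT embryos, by 4.41 ± 0.24 and 3.57 ± 0.29, and in fertilized embryos, by 2.79 ± 0.22 and 2.31 ± 0.27. In parthenogenetic embryos Atp5o rose by 1.03 ± 0.22, and Atp5j had 0.42 ± 0.27 (limma adjusted p = 0.202). Atp5k, Atp5l and Atp5j2, small subunits of the membrane part, were -2.21 ± 0.18, -2.36 ± 0.31 and -3.12 ± 0.18 with amanitin in SCNT embryos. In fertilized embryos they had 0.08 ± 0.18, 0.16 ± 0.31 and -0.95 ± 0.18. The other probe sets of Atp5k had -2.54 and -4.36 in SCNT embryos, and those of Atp5j2 -2.95 and 1.42. Atp5mpl was 0.88 ± 0.14 higher in SCNT and 1.07 ± 0.14 higher in fertilized embryos.

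Untreated 2-cell embryos of the 3 origins were then set side by side. Members were higher in SCNT than in fertilized embryos for 28 of 51 and lower for 0, where 14.3% of all genes were called higher, 16.3% lower and 30.6% either way, and 6 more passed an unadjusted p of 0.05 in limma. The median was 0.56 over the members and -0.05 over all genes. By complex, 14 of 17 ATP synthase members, 5 of 9 complex III members, 5 of 7 assembly factors and 2 of 4 complex II genes were higher, but 2 of 14 cytochrome c oxidase subunits. The largest differences were those of Atp5l (1.93 ± 0.31), Sdhb (1.85 ± 0.16), Uqcr11 (1.85 ± 0.46), Cox17 (1.73 ± 0.32) and Atp5o (1.69 ± 0.22). The subunits called were Cox7a2l (1.31 ± 0.13) and Cox4i1 (0.90 ± 0.23). Uqcrfs1 and Uqcrc1 had -0.11 and 0.16, with 95% intervals of -0.55 to 0.33 and -0.23 to 0.55. For Atp5a1 the chosen probe set was 0.88 higher and another -0.50. Of 13 called members with more than 1 tested probe set, all probe sets were called the same way for 6. Of the 28 calls, 17 held in every alternative setting and without each single array.

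Parthenogenetic embryos had 11 members higher and 24 lower than fertilized ones, where 26.4% of all genes were called higher, 21% lower and 47.4% either way. The medians were -0.32 over the members and 0.07 over all genes. Of 22 called members with more than 1 tested probe set, all probe sets were called the same way for 11. Complex III held 6 lower and 0 higher of 9, and ATP synthase 9 lower and 3 higher of 17. The members farthest below fertilized embryos were Cox17 (-3.71 ± 0.32), Atp5j (-2.85 ± 0.27), Uqcrfs1 (-2.34 ± 0.22), Cox16 (-2.20 ± 0.23) and Uqcr11 (-2.05 ± 0.46), the last at -0.54 with arrays set at the median. Those farthest above were Cox6b2 (1.55 ± 0.26), Atp5l (1.16 ± 0.31), Sdha (1.13 ± 0.10), Cox10 (1.02 ± 0.11) and Cox6a2 (0.96 ± 0.20). The higher members include isoforms known from testis and muscle beside general ones.

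Against parthenogenetic embryos, SCNT embryos had 36 members higher and 7 lower, where 24.4% of all genes were called higher, 30.1% lower and 54.5% either way. The 7 lower were Cox6a2 (-1.39 ± 0.20), Cox6c (-1.03 ± 0.11), Cox6b2 (-0.99 ± 0.26), Cox10 (-0.85 ± 0.11), Cox8c (-0.39 ± 0.13), Cox8a (-0.38 ± 0.13) and Sdha (-0.26 ± 0.10). These 3 comparisons share groups, so their values are given side by side and no overlap is drawn from them. In embryos with amanitin the order of SCNT and fertilized embryos was the other way round. There SCNT embryos had 6 members higher and 25 lower, where 18.6% of all genes were called higher, 24.6% lower and 43.2% either way, and median centring gave 2 and 29. Atp5g1 (-3.45 ± 0.21), Cox15 (-2.30 ± 0.22) and Cox7c (-2.20 ± 0.33) were farthest below, and with arrays set at the median these are -1.97, -1.77 and -0.20.

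**Figure D5:**
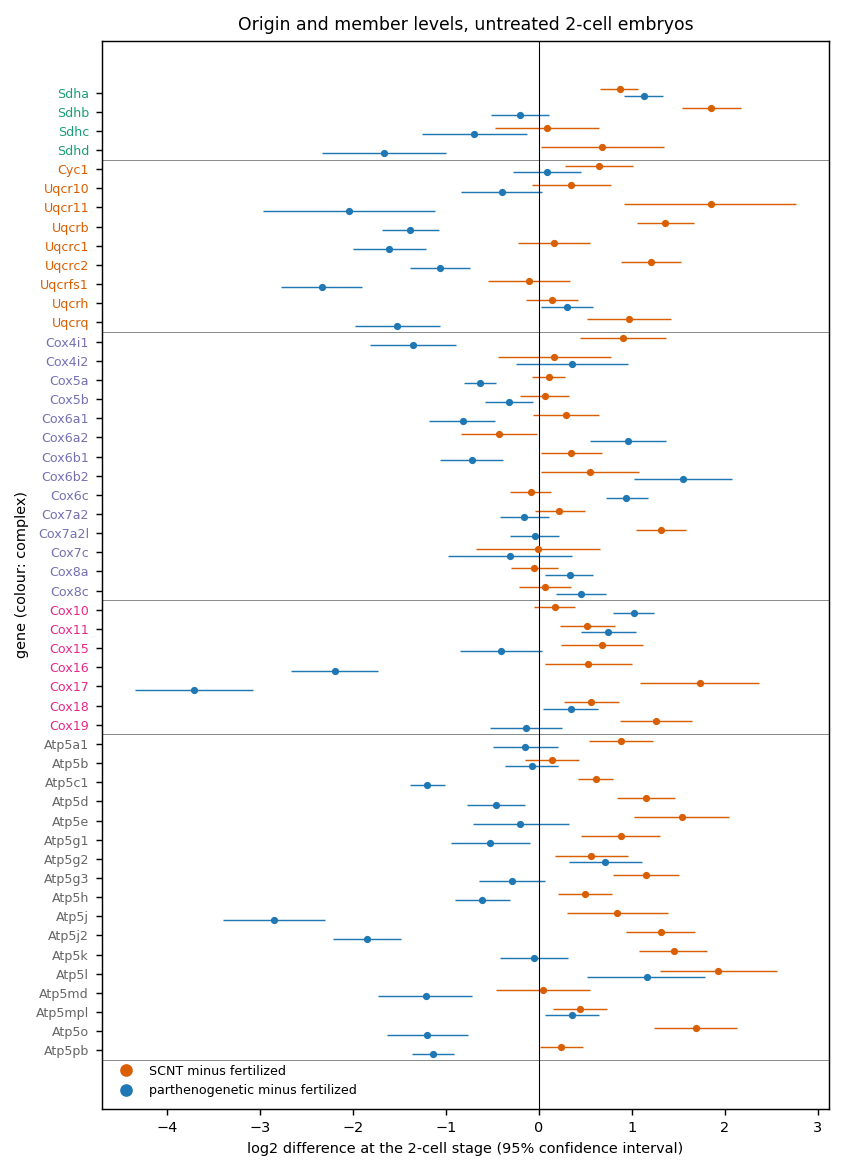
Differences between untreated 2-cell embryos (x axis, log2 with 95% confidence interval) for the tested members (y axis), SCNT minus fertilized and parthenogenetic minus fertilized. No SCNT minus fertilized difference is called below 0, and Cox17 has 1.73 for SCNT and -3.71 for parthenogenetic embryos.

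At the 1-cell stage 0 to 4 members were called in the amanitin comparisons and in SCNT minus untreated fertilized embryos. Amanitin changed 0 of 51 members in SCNT embryos, where 0.429% of all genes were called, 0.0805% higher and 0.349% lower. At an unadjusted p of 0.05 in limma 2 members passed. In fertilized embryos 4 members were called with amanitin, where 6.03% of all genes were called, 3.59% higher and 2.45% lower. Of these Cox7c (1.20 ± 0.33) and Cox15 (0.94 ± 0.22) were higher, Cox7a2l (-0.58 ± 0.13) and Uqcrb (-0.53 ± 0.15) lower, and median centring gave 12 higher and 0 lower. The untreated arrays of Cox7c held 3.29, 4.60, 3.95 and 5.08, all below the overall median of 5.34. Its amanitin arrays held 5.66, 5.09, 5.86 and 5.15, so the size of its rise is not settled. Without amanitin replicate 3 the 4 calls came to 2. The amanitin effect differed between the origins for 0 members, where 2.41% of all genes were called, 0.737% higher and 1.67% lower, and 7 members passed an unadjusted p of 0.05 in limma. SCNT minus fertilized was called for 1, Cox7a2l at 0.52 ± 0.14, where 5.56% of all genes were called, 2.87% higher and 2.69% lower. That call was lost without untreated fertilized replicate 1 or 2 and without SCNT replicate 1 or 4, when 0 members were called. The poly(A) spike controls were near the floor in SCNT 1-cell embryos, at 3.58 to 3.78 with amanitin and 3.54 to 3.60 without, against 5.75 to 6.64 in untreated fertilized 1-cell embryos.

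Parthenogenetic and amanitin-treated 1-cell embryos were also set against the other origins. Relative to fertilized 1-cell embryos 7 members were higher and 13 lower, where 10.9% of all genes were called higher, 9.52% lower and 20.4% either way, and median centring gave 10 and 9. Uqcrb (-1.33 ± 0.15), Sdhd (-1.06 ± 0.33) and Uqcrfs1 (-1.01 ± 0.22) were farthest below, and Cox8a (0.90 ± 0.13) and Cox7c (1.09 ± 0.33, with overlapping arrays) farthest above. All 4 fertilized arrays of Cox7c lay below the overall median, so the size of its difference is not settled. SCNT minus parthenogenetic at this stage gave 7 higher and 4 lower, where 7% and 7.19% of all genes were called (14.2% either way), and 11 and 3 with the values as deposited and 7 and 7 with median centring. SCNT minus fertilized under amanitin gave 7 higher and 6 lower, where 10.1% and 11.4% of all genes were called (21.5% either way), and 3 and 16 with median centring. The split in these 1-cell comparisons thus depended on the scaling. Without parthenogenetic replicate 4 or replicate 1, the 20 members called against fertilized embryos came to 11 and 13.

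The printed promoters can be set against the rest. RefSeq (build GRCm38.p6) held 44 promoters for 40 members, each from 250 bases before to 50 after the start. The NRF1 motif was found on either strand in 10 of them (22.7%), against 4.6% of all 32851 promoters. The motif CCGGAAG, bound by ETS factors such as the nuclear respiratory factor GABP, was in 17 (38.6%), against 8.86%. The motif of YY1, AAGATGGCG, was in 3 (6.82%), against 1.4%. CCGGAAG ends with the letters that AAGATGGCG begins with, so their matches can overlap and their counts are not independent. Among tested members with a promoter, 8 of 10 with the NRF1 motif were lower with amanitin in SCNT embryos and 2 higher, against 23 and 3 of 27 without it. In fertilized embryos the counts were 6 lower and 2 higher of 10, against 12 lower and 6 higher of 27. A match is a description of these letters and not a binding site.

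Genes for factors that bind such motifs were in a list of regulators. Of 20 genes for transcription and replication of mitochondrial genes, including regulators of nuclear genes for mitochondria, 14 were lower and 4 higher with amanitin in SCNT embryos, with a median of -1.57, and 13 were lower and 4 higher in fertilized embryos, with a median of -0.94. Over all genes 29.7% were lower and 39.6% higher in SCNT embryos, and 25.8% and 38.6% in fertilized embryos. Gabpa, the DNA-binding subunit of GABP, was -5.31 in SCNT and -7.17 in fertilized embryos with amanitin, and rose by 4.69 and 6.71 between the stages, with amanitin and 1-cell levels below the median. Yy1 was -5.79 and -5.52 with amanitin, and Ssbp1, which binds single strands of mitochondrial DNA, was -7.17, with the SCNT amanitin level of 4.86 below the median, and -6.0. Nrf1 itself had smaller differences, -0.79 in SCNT and -0.49 in fertilized embryos. Tfam, which packs mitochondrial DNA, was higher with amanitin, by 1.07 in SCNT and 0.51 in fertilized embryos. The amanitin effect differed between the origins for 6 of the 20, 2 higher and 4 lower, or 30%, below the 38.9% of all genes.

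Of 37 assembly factors and electron carriers outside the rule, 34 were tested. With amanitin 17 were lower and 9 higher in SCNT embryos, with a median of -0.71, and 11 were lower and 12 higher in fertilized embryos, with a median of -0.02. The medians of all genes were 0.28 and 0.27. Among all genes 29.7% were lower and 39.6% higher in SCNT embryos, and 25.8% and 38.6% in fertilized embryos. The fertilized shares of the list, 32.4% lower and 35.3% higher, were near these. The difference between the origins was called lower for 17 and higher for 2, where 21.1% of all genes were called lower and 17.8% higher. Cycs, cytochrome c, was -2.88 in SCNT and -1.43 in fertilized embryos, and Sco2, another copper protein for cytochrome c oxidase, was -4.64 and -3.22, with both amanitin levels below the median. The 4 assembly factors of complex II were higher. Sdhaf2, which helps attach the flavin to Sdha, was 1.56 higher in SCNT and 1.45 higher in fertilized embryos with amanitin, Sdhaf4 was 0.49 and 2.16 higher, Sdhaf1 0.59 and 1.17, and Sdhaf3 0.93 and 1.18. Lrpprc, which stabilises mitochondrial messenger RNA, was -1.43 in SCNT and 1.42 in fertilized embryos, a difference of -2.84. In untreated 2-cell embryos 14 of the 34 were higher and 1 lower in SCNT than in fertilized embryos. Of all genes 14.3% were higher and 16.3% lower there.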

How the data were processed

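The 39 arrays are Affymetrix mouse arrays with 45101 probe sets, hybridized with poly(A) RNA that was extracted with PicoPure and labelled with biotin by an Enzo kit, per the labels' protocols. The authors deposited a linear intensity for each probe set. The mean after trimming 2% at each end was 150 on every array, and the software is not given in the sources used here. The column of 1 sample, untreated SCNT 1-cell replicate 2, was empty. From these values log2(intensity + 6.9) was computed, 6.9 being the 20th percentile, and quantile normalized, since array medians ranged from 4.916 to 5.739, over the limit of 0.5. Probe sets had to exceed the overall median, 5.34, on 4 arrays. Group means were fitted with limma 3.58.1 (R 4.3.3, trend, 29 residual degrees of freedom), 2-sided, with Benjamini-Hochberg adjustment over all 14916 genes in each of 17 comparisons and 4 interactions. The number of arrays limits the precision. The fit was tested on simulated data.

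Genes named are the largest called changes in each comparison, the isoforms, complex II and members that moved against their complex. The members, lists and tests were chosen with earlier results of these data known. Alternatives were 11 settings a comparison and each array left out. 1 of these, which drops a pair of 1-cell arrays (untreated fertilized replicate 1, and replicate 4 of SCNT with amanitin), was chosen after seeing the data.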

Additional observations from a re-analysis of the deposited data

Results flagged for a closer look

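Of 153 groups of 4 arrays tested over the 16 genes described by array and the mean of the members, 10 held an array farther from the others than the range allows, where chance gives about 1 in 20. Untreated fertilized 1-cell embryos held 5 of them. Their replicate 1 had Uqcrc2 at 10.95 (others 11.21 to 11.26), Atp5g2 at 9.90 (8.40 to 8.55) and Atp5e at 6.95 (5.92 to 6.06), replicate 2 had Cox17 at 6.59 (7.17 to 7.27), and replicate 3 had Atp5g3 at 10.56 (10.38 to 10.40). In fertilized 1-cell embryos with amanitin, replicate 1 had Atp5g1 at 7.26 (6.96 to 6.97) and replicate 2 had Cox8a at 9.35 (9.56 to 9.60). In fertilized 2-cell embryos with amanitin, replicate 3 had Sdhd at 7.78 (6.76 to 6.90) and replicate 4 had Cox6a2 at 7.79 (8.13 to 8.16). In parthenogenetic 2-cell embryos, replicate 2 had Atp5g3 at 10.38 (10.65 to 10.68).

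The effect of a contrast differed between origins for many members in limma. The amanitin effect at the 2-cell stage differed between SCNT and fertilized embryos for 37 members. The stage change differed between SCNT and fertilized embryos for 22, and between parthenogenetic and fertilized embryos for 24. Calls of opposite sign in the 2 origins under amanitin were held by Atp5e, Cox7a2l and Sdhb, with differences of -2.61, -2.09 and -2.02, and the fertilized call of Atp5e rests on single arrays.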

How the results depend on the processing

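In the 8 main comparisons no count of called members moved by over 1.5 times in any setting. Counts under the 11 alternatives and, in brackets, with each array left out ran from 44 to 48 (46 to 47) for amanitin in SCNT 2-cell embryos, 34 to 37 (33 to 36) in fertilized ones, 34 to 38 (34 to 39) for their difference, 37 to 45 (37 to 40), 30 to 36 (29 to 35) and 33 to 38 (33 to 37) for the stage change in SCNT, parthenogenetic and fertilized embryos, 23 to 29 (26 to 29) for SCNT and 32 to 36 (31 to 35) for parthenogenetic minus fertilized. Calls that held in all of these numbered 43 of 47, 29 of 36, 32 of 37, 36 of 39, 21 of 32, 31 of 35, 17 of 28 and 28 of 35 in that order. The small 1-cell counts did move. For amanitin in fertilized 1-cell embryos 4 calls became 12 with median centring, 10 with array weights and 2 with averaged probe sets, and 2 to 6 with single arrays left out. For SCNT minus fertilized 1 became 0 with averaged probe sets, with the compared arrays alone and without the 1-cell pair, 2 with array weights, and 0 to 2 with single arrays left out. SCNT minus parthenogenetic, 11, became 18 with array weights and 21 with the compared arrays alone. SCNT minus fertilized under amanitin, 13, became 8 with averaged probe sets. The 1-cell difference in the amanitin effect, 0, became 5 with median centring, 2 with array weights, and 1 with the compared arrays alone, without the pair and at most with single arrays left out. Parthenogenetic minus fertilized, 20, ran from 11 to 18 with single arrays left out. Median centring reversed Uqcrh with amanitin in SCNT embryos (-0.29), Atp5h (-0.43) and Cox5b (-0.47) for the SCNT stage change, and, for the parthenogenetic one, Atp5b (-0.50), Atp5c1 (-0.10), Atp5g3 (-0.16), Atp5mpl (-0.45), Atp5pb (-0.16), Cox6a1 (-0.05) and Cox6c (-0.58). Averaging all probe sets of a gene reversed Sdhd (-0.70) with amanitin in fertilized embryos, Uqcrh (-1.24) with amanitin in SCNT embryos, Sdhc (-1.33) for their difference, and Atp5a1 (-1.17) and Cox16 (-0.61) for the SCNT stage change. The cause was not tested. Same-numbered samples had residual correlations from -0.05049 to 0.09224 over 64 pairs, so the numbers do not pair the samples, and the replicate block took 2 member calls, Atp5e (0.57) and Uqcr11 (-1.02) with amanitin in fertilized embryos. Signal over background limits dim probe sets, and genes under the filter were not tested, which does not make them absent.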
